A study of Mus musculus with 29 samples.

Results

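The genes of glycolysis and of the response to low oxygen were followed in mouse cardiac fibroblasts, taken fresh from the heart or kept for 48 h on scaffolds of heart matrix. The set holds 38 genes of the 55357 in the count table, taken by gene symbol. It covers 2 glucose transporters, 11 genes of upper glycolysis, 6 of lower glycolysis, 6 that handle lactate and pyruvate, 4 of oxygen sensing and 9 targets of hypoxia. Primary fibroblasts of young mice (YCF in the labels) and of aged mice (ACF) were profiled by RNA-seq in 29 libraries. Of these, 6 were fresh, 3 per age, and 23 came from cells on DECIPHER substrates, in which heart extracellular matrix (ECM) is held in a hydrogel. The 4 substrates are SoftY, StiffY, SoftA and StiffA, for a soft or stiff gel that carries young (Y) or aged (A) heart matrix. There were 10 groups of 3 libraries each, but only 2 libraries of young cells on SoftY. The sources used here do not give strain, sex or exact age of the mice. The titles call the libraries of a group bio reps, but the labels do not say whether these came from separate animals. The p-values below therefore measure the spread between these libraries, which may not be that between animals.

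In glycolysis, glucose that enters the cell through GLUT transporters is trapped by hexokinase and turned by a chain of enzymes into pyruvate. Pyruvate is either reduced to lactate by lactate dehydrogenase and exported by monocarboxylate transporters, or oxidised in mitochondria by pyruvate dehydrogenase, which the PDK kinases switch off. Under low oxygen the prolyl hydroxylases (the Egln genes) stop marking the HIF alpha subunits (Hif1a, Epas1) for destruction, and HIF then raises many glycolytic genes together with Vegfa, Car9 and others. HIF is controlled mainly at the level of its protein, which was not measured here.

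Library totals lay between 1192668 and 3275089 counts, and a level of 10 CPM (counts scaled to library size) stood for 12 to 34.6 counts in a library. Levels are CPM over totals scaled by trimmed means, and differences are log2 fold changes ± SE from edgeR's quasi-likelihood test with Benjamini-Hochberg adjustment over all genes. A gene is said to have risen, fallen or changed at an adjusted p under 0.05, with no minimum fold. All 8 fibroblast markers were detected in every group, and markers of lymphocytes summed to at most 1.03 CPM in any library. Young cells on SoftA replicate 3 stood apart from the other libraries, with the lowest correlation with its own group (0.945). Library names carry 1 letter for fresh cells and another for each substrate, so that a preparation that followed the letters cannot be told apart from culture or substrate. In such bulk RNA, fewer cells of a type and less RNA per cell cannot be told apart either.

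Most of the set had enough counts to be tested. Of the 38 genes, 33 passed the filter on low counts among fresh cells and 35 among cultured cells. Aldoc (35 counts over all 29 libraries), Ankrd37 (56) and Car9 (27) passed in neither, and Pdk4 and P4ha3 passed only once cultured libraries were included. Vegfa, the angiogenic growth factor and a classical HIF target, stayed between 1.57 and 9.95 CPM in every library. A second table row named Aldoa held 17 counts and was not tested. For 8 genes the level is uncertain, because near-identical copies elsewhere in the genome can take their reads. Gapdh, the glyceraldehyde phosphate dehydrogenase often used as a reference gene, held only 349 counts in all libraries together, and 58 other genes each share over 10% of its 50-base words in the GENCODE M21 transcripts. The shared part was 68.0% for Pgk1, 59.1% for Bnip3, 49.5% for Eno1, 41.5% for Pgam1, 24.5% for Gpi1, 23.7% for Pkm and 21.0% for Ldhb. Of Pfkp's words, 15.4% lie in the overlapping gene Pitrm1, and whether strand was used in counting is not given.

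HIF binds DNA at a short core, spelled ACGTG or GCGTG. RefSeq promoter windows of build GRCm38.p6 were available for 34 of the 38 genes, in 48 windows, with none for Bhlhe40, Epas1, Ndrg1 and Slc2a3. In the 250 bases before the start site, read on both strands, ACGTG was found in 22 of these 48 windows (45.8%), against 16.6% of all 32851 windows, and GCGTG in 54.2% against 28.2%. The set was picked to hold targets of hypoxia, and the windows of all genes were not matched to it in base content. These shares are therefore no test of the set. Windows of the same gene can overlap, as for Aldoa and Eno1, and then count the same site again. The palindrome CACGTG, also the core of the E-box, counts as 2 overlapping matches to ACGTG, 1 per strand. Below are 4 such windows, 5′ to 3′, with each match to either core in capitals. 3 belong to genes that rose in aged cells on aged ECM (Slc16a3 in young cells as well): Ldha (chr7:46845554-46845803, plus strand, the upstream one of its 2 starts), Slc16a3 (chr11:120948817-120949066, plus strand) and Pgk1 (chrX:106186850-106187099, plus strand). The last is that of Egln3 (chr12:54203875-54204124, minus strand), which had the largest fall of the set in aged cells put into culture.
Ldha: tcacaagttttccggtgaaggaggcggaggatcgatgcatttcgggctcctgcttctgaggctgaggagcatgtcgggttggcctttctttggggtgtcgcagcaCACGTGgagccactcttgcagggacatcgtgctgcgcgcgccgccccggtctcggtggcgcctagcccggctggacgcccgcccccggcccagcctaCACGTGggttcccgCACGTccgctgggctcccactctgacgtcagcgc
Slc16a3: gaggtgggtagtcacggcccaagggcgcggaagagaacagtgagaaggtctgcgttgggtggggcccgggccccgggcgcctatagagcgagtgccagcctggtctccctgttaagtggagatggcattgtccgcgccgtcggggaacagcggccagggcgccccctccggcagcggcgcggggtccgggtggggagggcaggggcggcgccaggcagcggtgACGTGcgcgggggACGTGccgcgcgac
Pgk1: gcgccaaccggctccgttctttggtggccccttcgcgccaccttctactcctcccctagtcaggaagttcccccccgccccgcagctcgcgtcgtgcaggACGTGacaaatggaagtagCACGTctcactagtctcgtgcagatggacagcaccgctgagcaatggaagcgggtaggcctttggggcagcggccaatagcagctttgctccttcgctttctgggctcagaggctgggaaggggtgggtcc
Egln3: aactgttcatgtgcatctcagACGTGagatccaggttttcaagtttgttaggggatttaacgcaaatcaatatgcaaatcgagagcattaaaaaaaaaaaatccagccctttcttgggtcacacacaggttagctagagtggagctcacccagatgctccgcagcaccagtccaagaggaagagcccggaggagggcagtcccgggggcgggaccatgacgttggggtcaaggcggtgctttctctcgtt
The Ldha window held 5 matches to ACGTG, 4 of them in 2 copies of CACGTG, while the windows of Slc16a3 and Pgk1 held 2 each and that of Egln3 1. The second Ldha window held none to ACGTG and 1 to GCGTG. Bases just after the start of the printed Ldha window were not found in a GENCODE M21 transcript of Ldha. Those after its second start were found, as were those of the printed Slc16a3, Pgk1 and Egln3 windows in transcripts of these genes. Other genes that rose in aged cells on aged ECM differed in this. Tpi1, Pdk1 and Eno1 had no match to ACGTG in any window, and Tpi1 had none to GCGTG either. Pfkfb3, Ero1a, Aldoa and Pkm had ACGTG in at least 1 window, and Bhlhe40 had no window. These are matches of letters, not measured binding.

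Aged were first compared with young cells as isolated, which asks how these genes differ with age before culture. Slc2a1, some enzymes of lower glycolysis and some hypoxia targets were higher in aged cells, upper glycolysis moved both ways, and Epas1 was lower. Of the 33 genes tested, 12 rose and 3 fell. That is 45.5% of them, against 31.8% of all 11786 genes tested (15% higher, 16.8% lower). The median log2 difference was 0.18 over the set and -0.02 over all genes. By role, 1 of 2 transporters rose, 2 of 10 upper glycolysis genes rose and 2 fell, and 3 of 6 lower glycolysis genes rose. Of the lactate and pyruvate genes 2 of 5 rose, as did 3 of 6 hypoxia targets, while of the 4 oxygen sensing genes 1 rose and 1 fell.

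Slc2a1, which encodes the basal glucose transporter GLUT1 (chromosome 4, 118965908 to 118995181 in mm39), had the largest rise. It measured 121, 117 and 121 CPM in young and 241, 233 and 225 CPM in aged fresh cells. Every aged library lay far above every young one, a log2 difference of 0.92 ± 0.07, adjusted p = 2.80e-07. Slc2a3, the high-affinity transporter GLUT3, gave 0.04 ± 0.21 (adjusted p = 0.911). The hexokinases, which phosphorylate glucose in the first step, moved apart. Hk1, the constitutive form, read 169.6, 159 and 163 CPM in young and 255, 272 and 234 CPM in aged cells (0.60 ± 0.08, adjusted p = 3.40e-05). Hk2, the inducible form, read 132, 131 and 135 CPM in young and 95, 104 and 111 CPM in aged cells (-0.39 ± 0.09, adjusted p = 0.00395). Neither pair of groups overlapped, and the 2 genes lay in opposite order.

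Further down the chain the rises were smaller. Pfkl, the liver-type subunit of phosphofructokinase, fell from 580.1, 597 and 574 CPM to 481, 498 and 454 CPM (-0.32 ± 0.05, adjusted p = 3.72e-04). Pgk1, phosphoglycerate kinase, read 93.2, 96.2 and 82.2 CPM in young and 147, 129 and 98.0 CPM in aged cells (0.42 ± 0.13, adjusted p = 0.0255). Its aged libraries were spread over a wide range, and the lowest of them lay just above the highest young one. Pkm, the pyruvate kinase gene and the most counted of the set, stood at 3034, 2954 and 2917 CPM in young and at 3993, 3975 and 3837 CPM in aged cells (0.37 ± 0.04, adjusted p = 3.51e-06). Ldha, which makes lactate from pyruvate, read 910.3, 873 and 901 CPM against 1116, 1104 and 1065 CPM (0.26 ± 0.05, adjusted p = 7.50e-04). For both genes all aged libraries lay above all young ones. Smaller rises were those of Slc16a3, which encodes the lactate exporter MCT4 (0.26 ± 0.07), the enolase Eno1 (0.21 ± 0.04) and the aldolase Aldoa (0.16 ± 0.05). The factors of the scaling by trimmed means were 1.06 to 1.08 in fresh young and 0.946 to 0.964 in fresh aged libraries. Such factors raise aged over young levels, so that the size of small rises depends on the scaling. Gpi1, Pfkm, Pfkp, Pfkfb3, Pfkfb4, Tpi1, Gapdh, Pgam1, Eno2, Ldhb, Slc16a1 and Pdk1 did not pass the test, with differences between -0.38 and 0.33.

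The HIF subunits and the genes that report on them did not move one way. Epas1, which encodes HIF-2 alpha, read 468, 537 and 531 CPM in young and 277, 339.7 and 295 CPM in aged fresh cells. No aged library reached the lowest young one (-0.79 ± 0.08, adjusted p = 2.44e-06). Hif1a measured 418, 392 and 444 CPM in young and 386, 375 and 400.4 CPM in aged cells, with overlap, and did not pass (-0.14 ± 0.06, adjusted p = 0.105). Egln3, the prolyl hydroxylase that is itself a strong HIF target, read 26.5, 30.3 and 26.8 CPM against 44.0, 42.5 and 37.0 CPM (0.52 ± 0.15, adjusted p = 0.0171). All 3 aged libraries lay above the young ones. Ero1a, the oxidase that forms disulfide bonds in the endoplasmic reticulum, stood at 115, 121 and 122 CPM and rose to 153, 170.3 and 183 CPM (0.47 ± 0.09, adjusted p = 8.28e-04).

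Adm, the vasodilator peptide adrenomedullin, read 481, 453 and 468 CPM in young and 578, 588 and 587 CPM in aged cells (0.29 ± 0.05, adjusted p = 9.10e-04). Bhlhe40, a clock-linked repressor, read 88.4, 93.3 and 100.1 CPM and 124, 127 and 102 CPM (0.30 ± 0.11, adjusted p = 0.0455). The groups were apart for both, for Bhlhe40 by little. Vegfa gave 3.78, 6.06 and 6.11 CPM in young and 7.88, 5.0 and 8.66 CPM in aged cells, which overlapped (0.41 ± 0.35, adjusted p = 0.419). Bnip3, a mitophagy receptor, gave -0.30 ± 0.11 (adjusted p = 0.0534), Ndrg1 0.47 ± 0.37 and Egln1 -0.32 ± 0.39, none of which passed. Pdk4, untested at this depth, read 2.06, 0.289 and 2.35 CPM in young and 2.07, 1.25 and 0.394 CPM in aged cells. With single libraries left out, 11 of the 15 calls held throughout, and those of Pgk1, Slc16a3, Egln3 and Bhlhe40 were lost in 3, 2, 2 and 4 of 6 fits.

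**Figure D1:**
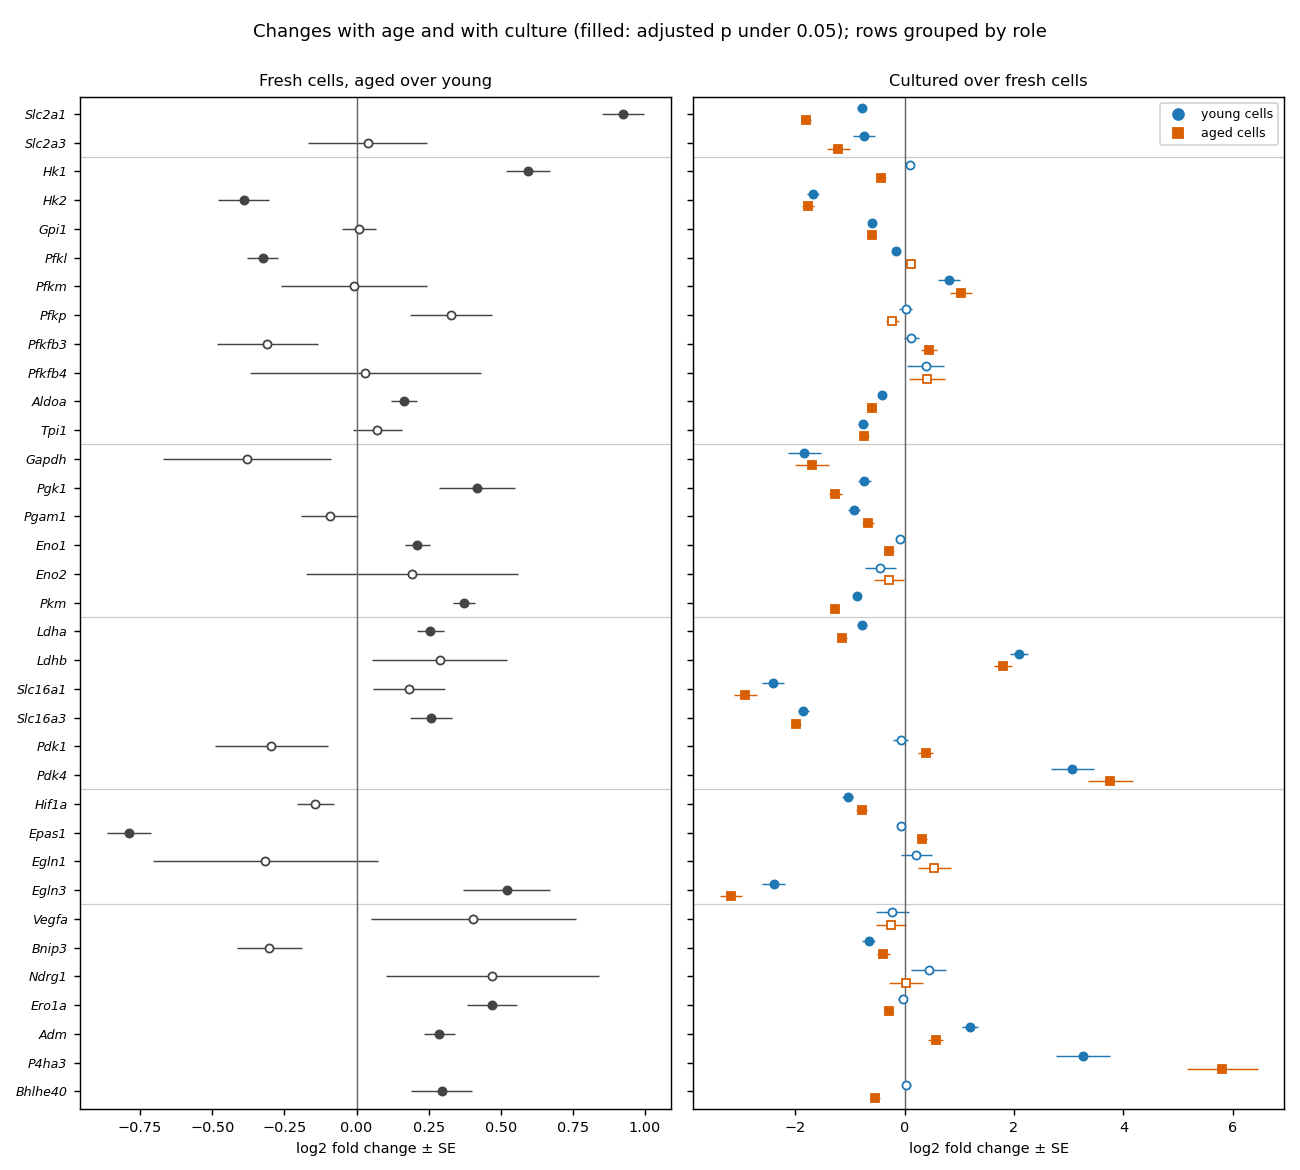
Log2 fold change ± SE of each tested gene of the set, grouped by role, in aged over young fresh cells (left, 3 libraries per age) and in cultured over fresh cells (right, blue circles for young and orange squares for aged cells). Filled symbols have an adjusted p under 0.05: on the left 12 filled symbols lie to the right of 0 and 3 to the left, and on the right 16 genes are filled and left of 0 at both ages.

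Markers of other cells moved with fresh age. The 9 myeloid markers summed to 198 to 204 CPM in young and 362 to 403 CPM in aged fresh cells. Of the 6 tested, 4 were higher. The 5 neutrophil markers summed to 0.470 to 4.47 and 9.54 to 12.5 CPM, and only 1 of them was tested. That rise lay in S100a8, with group means of 0.518 and 9.77 CPM, while Csf3r had 1.80 and 1.25 CPM. Endothelial markers summed to 117 to 136 and 154 to 169 CPM, with 1 of 6 higher, and fibroblast markers to 8004 to 8538 and 6473 to 6925 CPM, with 2 of 8 higher and 5 lower. Cardiomyocyte markers summed to at most 3.73 CPM in any fresh library, with 5 of 10 at 0 in young and 4 in aged cells. The part of these cells in the changes above was not tested.

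After 48 h on the substrates more genes of the set had fallen than risen against fresh cells of the same age, which describes the step from the heart into culture. In young cells 17 of 35 tested genes fell and 5 rose, and in aged cells 20 fell and 8 rose. These shares, 62.9% and 80.0%, stand against 56.9% of all 13523 genes tested in young cells (29.9% lower, 27.1% higher) and 62.4% in aged cells (32.5% lower, 29.9% higher). The set's median was -0.22 in young and -0.39 in aged cells, against -0.03 and -0.01 over all genes. 16 genes fell at both ages and 5 rose at both, and how many of all genes did so was not counted. Of these 5, Pdk4 and P4ha3 had passed the filter only through the cultured libraries, in which they are high, so that their calls lend no support to the counts. Both glucose transporters fell at both ages, as did 4 of the 6 lower glycolysis genes in young and 5 in aged cells. Summed over the set, levels went from 10224 to 10362 CPM in fresh young and 11704 to 12164 CPM in fresh aged cells to between 6246 and 9718 CPM in cultured libraries.

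Transporters of lactate and glucose fell at both ages. Slc16a1, the lactate and pyruvate transporter MCT1, read 79.5, 76.8 and 61.5 CPM in fresh young cells, and 11.4 to 18.2 CPM (median 13.3) in the 11 cultured young libraries. In aged cells it went from 90.0, 74.9 and 89.4 CPM to between 2.7 and 24.4 CPM (median 11.2) in 12 libraries. No cultured library came near a fresh one, with log2 changes of -2.41 ± 0.21 (adjusted p = 2.04e-11) and -2.91 ± 0.20 (adjusted p = 1.26e-13). Slc16a3 fell from 241, 290.2 and 286 CPM to 42.2 to 121 CPM (median 84.0) in young cells (-1.85 ± 0.10, adjusted p = 1.66e-16). Slc16a3 in aged cells fell from 336, 343 and 322 CPM to 53.6 to 145 CPM (median 76.4; -1.98 ± 0.09, adjusted p = 6.75e-18). Slc2a1 fell to 61.3 to 87.8 CPM (median 68.6) in cultured young and 52.7 to 85.2 CPM (median 64.6) in cultured aged libraries. Cultured libraries of the 2 ages covered much the same range, below both fresh groups (-0.78 ± 0.09, adjusted p = 5.32e-09, and -1.80 ± 0.08, adjusted p = 1.71e-18). Slc2a3 changed by -0.75 ± 0.20 and -1.21 ± 0.20.

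Within the glycolytic chain Hk2 fell most among genes free of near-identical copies, to between 29.3 and 48.2 CPM (median 42.2) in young cells and between 25.0 and 46.0 CPM (median 28.2) in aged cells. All cultured values lay below the fresh values given above (-1.67 ± 0.11, adjusted p = 2.45e-14, and -1.77 ± 0.11, adjusted p = 7.91e-15). Pkm fell to 1227 to 2050.5 CPM (median 1712) and 1341 to 2025 CPM (median 1598), changes of -0.87 ± 0.05 (adjusted p = 1.31e-16) and -1.27 ± 0.04 (adjusted p = 1.99e-21). Ldha fell to 378 to 760.1 CPM (median 510.0) and 398 to 680.4 CPM (median 501), changes of -0.78 ± 0.09 (adjusted p = 7.07e-09) and -1.14 ± 0.09 (adjusted p = 7.19e-13). For Pkm and Ldha too, every cultured library lay below every fresh one of its age. Pgk1 went to 35.3 to 73.9 CPM (median 59.3) in young and 34.4 to 70.5 CPM (median 51.3) in aged cells (-0.73 ± 0.12, adjusted p = 5.75e-06, and -1.27 ± 0.12, adjusted p = 6.43e-11).

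Pgam1, the phosphoglycerate mutase, read 107, 107 and 102 CPM in fresh young cells and 40.4 to 87.0 CPM (median 58.4) after culture (-0.93 ± 0.10, adjusted p = 6.44e-09), and it changed by -0.67 ± 0.10 in aged cells. Gapdh, with its few counts, went from 12.7, 10.7 and 15.0 CPM to 1.98 to 6.16 CPM (median 3.39) in young cells (-1.83 ± 0.29, adjusted p = 3.93e-06). In aged cells it went from 11.2, 12.5 and 6.30 CPM to 0.957 to 6.18 CPM (median 2.92; -1.70 ± 0.31, adjusted p = 2.22e-05). The fresh and cultured ranges of Gapdh nearly met in aged cells. Its level says little about the gene, since 89 copies summed held 3477 counts against its own 349. Gpi1, Aldoa and Tpi1 fell at both ages by 0.40 to 0.75 on the log2 scale. Pfkl fell in young cells (-0.16 ± 0.07, adjusted p = 0.0439), a call lost in 11 of 14 fits with 1 library left out, and gave 0.11 ± 0.07 in aged cells (adjusted p = 0.141). Hk1, Eno1, Ero1a and Bhlhe40 fell in aged cells (-0.42, -0.28, -0.28 and -0.54) and did not pass in young cells, where their changes lay between -0.08 and 0.09.

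**Figure D2:**
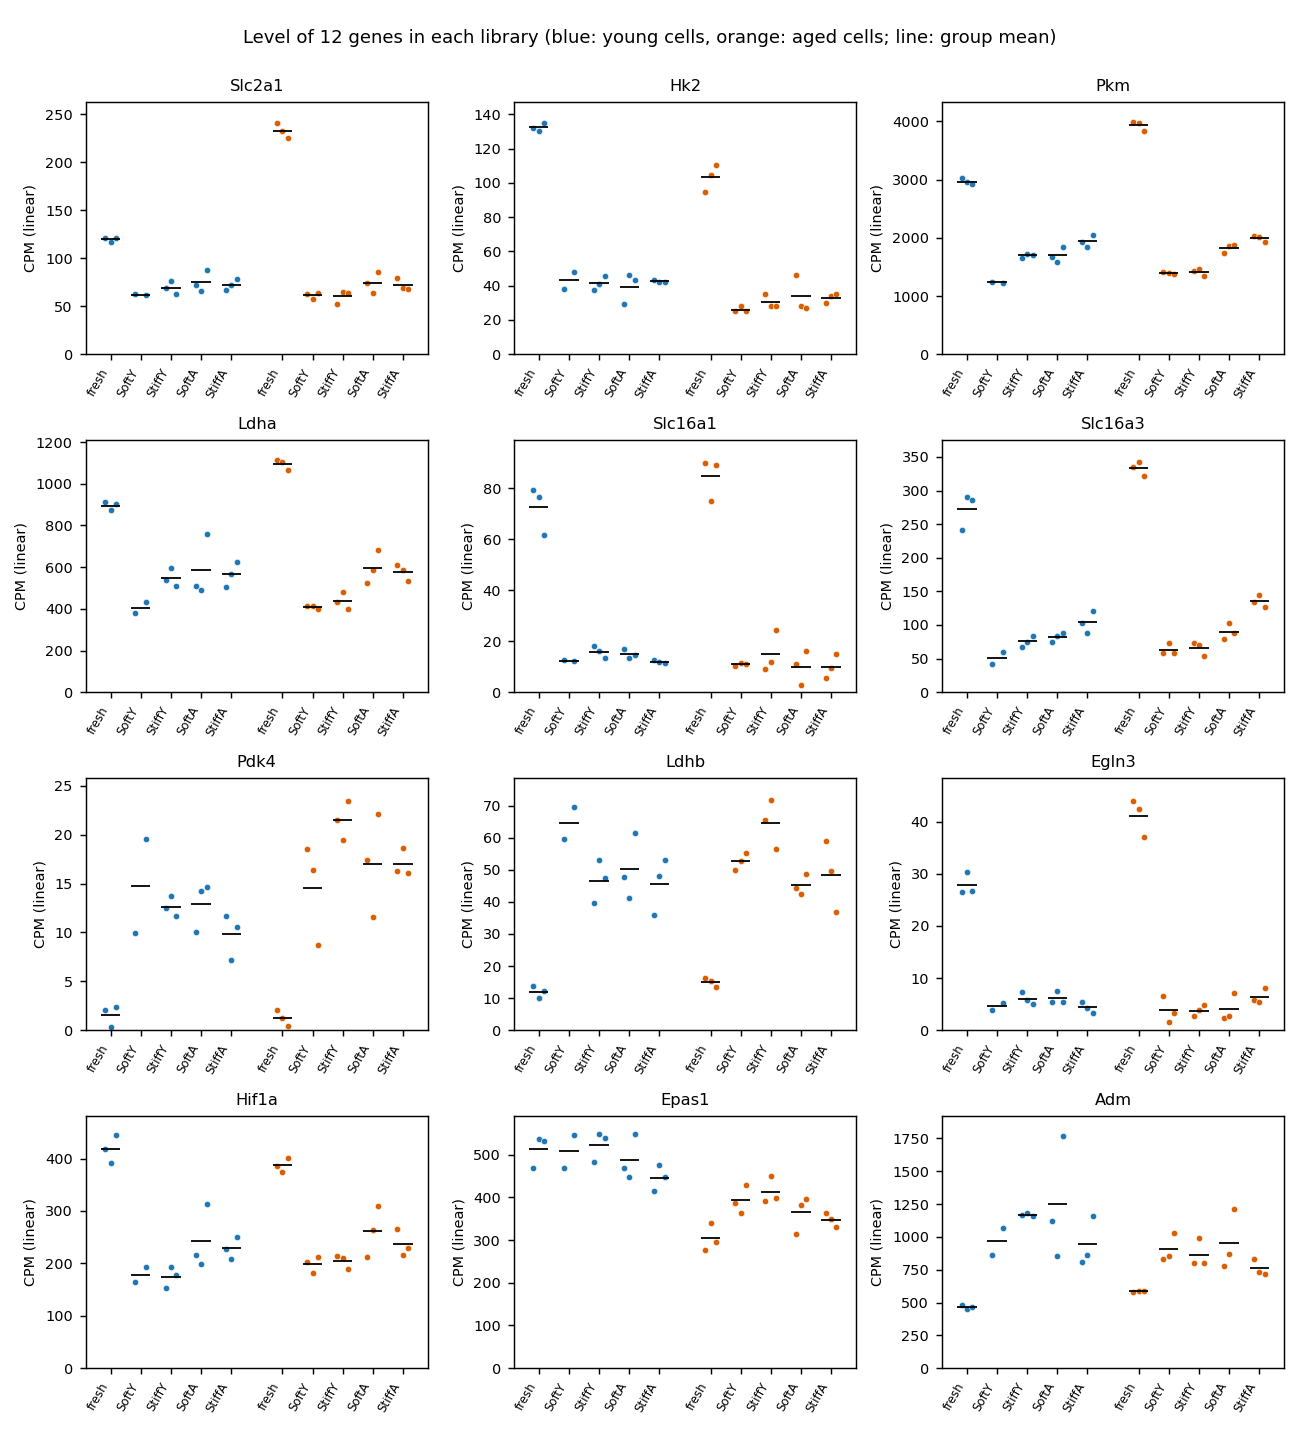
CPM on a linear axis from 0 for 12 genes of the set in every library, by group (blue for young cells, orange for aged cells, black line for the group mean, 3 libraries per group and 2 for young cells on SoftY). Slc2a1, Hk2, Pkm, Ldha, Slc16a1, Slc16a3 and Egln3 are highest in the fresh groups, Ldhb, Pdk4 and Adm in cultured groups, and for Slc2a1 fresh aged libraries at 225 to 241 CPM lie above fresh young ones at 117 to 121 CPM.

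Oxygen sensing genes also moved at the step into culture. Egln3 read 3.39 to 7.52 CPM (median 5.39) in cultured young and 1.64 to 8.05 CPM (median 4.29) in cultured aged libraries. These were well under its fresh levels (-2.39 ± 0.21, adjusted p = 2.60e-11, and -3.17 ± 0.20, adjusted p = 7.98e-15). Hif1a went to 153 to 313 CPM (median 199) in young and 182 to 309 CPM (median 214) in aged cells, below every fresh library of either age (-1.04 ± 0.10, adjusted p = 1.97e-10, and -0.79 ± 0.10, adjusted p = 4.18e-08). Epas1 gave -0.06 ± 0.08 in young cells (adjusted p = 0.517) and rose in aged cells to between 314 and 449 CPM (median 385; 0.32 ± 0.08, adjusted p = 0.00118). Its aged cultured range overlapped that of fresh aged cells. Vegfa did not pass at either age (-0.22 ± 0.30, adjusted p = 0.551, and -0.25 ± 0.28, adjusted p = 0.456), with cultured medians of 4.63 and 5.98 CPM. Bnip3 fell by 0.65 and 0.39 on the log2 scale.

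Pdk4 and P4ha3 were nearly absent from fresh cells, and they are given as levels and ratios without a test. Pdk4, the PDH kinase that fasting and fatty acids induce, went from 12 counts over the 3 fresh young libraries and 9 over the aged ones to 7.19 to 19.6 CPM (median 11.6) in young and 8.71 to 23.4 CPM (median 18.0) in aged cells. No cultured library lay near the fresh values given above. As ratios of counts over library totals these are 8.74 (exact 95% counting interval 4.93 to 17.1) and 14.2 (7.42 to 31.3). P4ha3, a subunit of the collagen prolyl hydroxylase, had 6 fresh young counts and 1 fresh aged count, so that its ratios were 10.4 (4.69 to 28.8) and 77.7 (13.8 to 3079). Its cultured libraries held 3.85 to 12.5 CPM (median 7.07) and 5.71 to 14.8 CPM (median 10.8). Such intervals cover counting error only.

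Ldhb, Adm and Pfkm, all measured in fresh cells too, rose at both ages. Ldhb, the lactate dehydrogenase subunit linked to lactate use, read 13.8, 10.1 and 12.2 CPM fresh and 35.8 to 69.5 CPM (median 47.9) cultured in young cells. The aged values were 16.2, 15.4 and 13.4 CPM fresh and 36.9 to 71.8 CPM (median 51.3) cultured. Cultured and fresh libraries were wide apart (2.09 ± 0.17, adjusted p = 5.96e-12, and 1.80 ± 0.16, adjusted p = 6.53e-11). Adm rose to 812 to 1764 CPM (median 1124) in young and 718 to 1209 CPM (median 831) in aged cells (1.2 ± 0.15, adjusted p = 3.47e-08, and 0.57 ± 0.14, adjusted p = 7.51e-04), above all fresh libraries. Pfkm, the muscle-type phosphofructokinase subunit, went from 9.63, 11.6 and 11.7 CPM to 13.7 to 27.7 CPM (median 19.0) in young cells and from 9.13, 12.9 and 11.4 CPM to 16.7 to 29.2 CPM (median 22.8) in aged cells (0.81 ± 0.20 and 1.04 ± 0.20). In aged cells Pfkfb3, which makes the activator of phosphofructokinase, changed from 56.8, 33.7 and 49.2 CPM to 39.7 to 87.2 CPM (median 69.6; 0.45 ± 0.14, adjusted p = 0.00679), and Pdk1 from 22.8, 40.8 and 37.0 CPM to 29.7 to 61.6 CPM (median 45.1; 0.39 ± 0.14, adjusted p = 0.0170). For these 2 genes fresh and cultured libraries overlapped. The call of Pfkfb3 was lost without fresh aged replicate 2 (adjusted p = 0.140) and that of Pdk1 without fresh aged replicate 1 (adjusted p = 0.305).

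Fibroblast markers summed to 19458 to 31595 CPM in cultured libraries, above the fresh sums given above. Of these 8 markers 6 were higher and 1 lower in young cells, and 5 higher and 2 lower in aged cells. Col1a1 was the largest part of each cultured sum, while the group mean of Pdgfra was lower in every cultured group than in fresh cells of its age. Myeloid markers summed to 23.1 to 67.0 CPM, below their fresh sums. Of the 6 tested myeloid markers 5 were lower in young and all 6 in aged cells, and of the 6 endothelial markers 5 and 4 were lower. Neutrophil markers were at most 0.784 CPM in any cultured library. The part of these cells in the changes with culture was not tested.

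The response to culture differed with age for 9 of the 35 genes tested (2 higher and 7 lower in aged cells), which is 25.7% against 20.6% of all genes tested. The fall was deeper in aged cells for Slc2a1 (-1.02 ± 0.12, adjusted p = 2.32e-07), Pgk1 (-0.53 ± 0.17, adjusted p = 0.0268), Pkm (-0.39 ± 0.07, adjusted p = 4.14e-05) and Ldha (-0.36 ± 0.13, adjusted p = 0.0494). Hk1 (-0.51 ± 0.12, adjusted p = 0.00179) and Bhlhe40 (-0.57 ± 0.12, adjusted p = 9.36e-04) fell in aged cells only by the test within each age. Adm rose less in aged cells (-0.63 ± 0.19, adjusted p = 0.0186). Epas1 (0.38 ± 0.11, adjusted p = 0.0145) and Pfkl (0.27 ± 0.09, adjusted p = 0.0399) went the other way. All 9 also differed between ages in fresh cells, and this interaction uses the same fresh libraries as that comparison. The calls of Slc2a1, Hk1, Pkm and Bhlhe40 held in all 29 fits with 1 library left out. Those of Ldha, Pfkl and Pgk1 were lost in 25, 7 and 6 of them, those of Epas1 and Adm in 1 each, and the count was 5 without fresh young replicate 2 or fresh aged replicate 1.

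Once in culture, aged and young cells differed little in these genes. 2 of 35 rose and 4 fell in aged cells, 17.1% against 15% of all 12841 genes tested (6.52% higher, 8.5% lower), with a median of 0.03 against -0.0029 for all genes. Epas1 read 416 to 549 CPM (median 477) in young and 314 to 449 CPM (median 385) in aged cultured libraries (-0.38 ± 0.05, adjusted p = 9.80e-06). Hk2 had medians of 42.2 and 28.2 CPM (-0.46 ± 0.10, adjusted p = 0.00128). Both were lower in aged cells, as they were fresh, though ranges overlapped in each case. Ero1a was higher in aged cells, at 113 to 166 CPM (median 137) against 98.6 to 143 CPM (median 117; 0.25 ± 0.06, adjusted p = 0.00239). Pdk4 rose as well (0.47 ± 0.15, adjusted p = 0.0346), with the ranges given above.

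Bhlhe40 and Adm, higher in aged fresh cells, were lower in aged cultured cells. Bhlhe40 read 72.3 to 130.3 CPM (median 104) in young and 67.9 to 104 CPM (median 82.1) in aged cells (-0.25 ± 0.06, adjusted p = 0.00456), and Adm gave -0.31 ± 0.09 (adjusted p = 0.0266). Slc2a1, with the largest difference in fresh cells, gave -0.06 ± 0.07 (adjusted p = 0.598), Ldha -0.07 ± 0.07 (adjusted p = 0.528) and Pkm 0.01 ± 0.03 (adjusted p = 0.944). Hif1a gave 0.13 ± 0.07 (adjusted p = 0.247) and Vegfa 0.41 ± 0.21 (adjusted p = 0.207). Without young SoftA replicate 3, Hif1a passed the test (0.20, adjusted p = 0.0240). The calls of Adm and Pdk4 were lost in 9 and 8 of 23 fits with 1 library left out, and the other 4 held. Endothelial markers moved beside this comparison, with 5 of 6 higher in aged cells and sums of 80.6 to 168 CPM against 61.6 to 117 CPM. Fibroblast markers had 7 of 8 lower in aged cells, with sums of 19458 to 26632 CPM against 23668 to 31595 CPM. The part of either in these differences was not tested.

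The matrix on which cells were kept was compared next, as aged over young ECM averaged over both gels. No gene of the set fell on aged ECM at either cell age, and genes of several roles rose. In aged cells these were 3 of 10 upper glycolysis genes, 3 of 6 of lower glycolysis, 3 of 6 lactate and pyruvate genes and 2 of 7 hypoxia targets. In young cells they were 2 lactate and pyruvate genes and 1 gene each of upper glycolysis, lower glycolysis, oxygen sensing and the hypoxia targets. In aged cells 11 of 35 rose, 31.4% against 7.44% of all genes tested (4.14% higher, 3.3% lower), with a median of 0.23 against -0.0059. In young cells 6 of 35 rose, 17.1% against 2.49% of all genes (1.67% higher, 0.825% lower), with a median of 0.18 against -0.00087. Aldoa, Bhlhe40, Pdk1, Pkm and Slc16a3 rose at both cell ages, and the share of all genes that did so was not counted. Pfkfb3, Tpi1, Pgk1, Eno1, Ldha and Ero1a passed in aged cells, and Hif1a in young cells. None of the 35 genes passed the test of a difference between ages in this response.

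Slc16a3 had the largest rise on aged ECM at both ages. In aged cells it read 58.6, 73.4 and 57.7 CPM on SoftY, 73.1, 70.9 and 53.6 CPM on StiffY, 79.3, 103 and 88.2 CPM on SoftA, and 134, 145 and 127 CPM on StiffA. Every library on aged ECM lay above every library on young ECM, and StiffA was highest (0.80 ± 0.11, adjusted p = 1.86e-05). In young cells the values were 42.2 and 60.4 CPM on SoftY, 67.4, 75.3 and 84.0 CPM on StiffY, 74.8, 84.0 and 88.6 CPM on SoftA, and 102, 88.2 and 121 CPM on StiffA. There, StiffY and SoftA overlapped, with SoftY lowest and StiffA highest but for 1 library (0.58 ± 0.12, adjusted p = 0.00369).

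Pgk1 in aged cells stood at 38.4, 45.5 and 34.4 CPM on SoftY and 52.7, 41.4 and 44.5 CPM on StiffY. It stood at 69.0, 60.9 and 49.9 CPM on SoftA and 70.5, 63.2 and 66.8 CPM on StiffA (0.57 ± 0.12, adjusted p = 0.00245). The ranges on the 2 matrices overlapped by 1 library each. Eno1 in aged cells read 767, 764 and 818 CPM on SoftY, 812, 941 and 809.7 CPM on StiffY, 1001, 1124 and 1312 CPM on SoftA, and 1192, 1153 and 1079 CPM on StiffA. All libraries on aged ECM were above those on young ECM (0.49 ± 0.08, adjusted p = 3.53e-04). Pdk1, the PDH kinase that HIF induces, read 31.0, 34.5 and 39.4 CPM, then 39.8, 44.2 and 29.7 CPM, then 53.9, 55.1 and 61.6 CPM, and 51.0, 49.5 and 45.9 CPM on the same substrates in the same order. Again no library on young ECM reached one on aged ECM (0.55 ± 0.11, adjusted p = 0.00197).

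In young cells Pdk1 read 30.7 and 25.2 CPM on SoftY and 33.9, 32.2 and 43.3 CPM on StiffY, against 44.7, 45.5 and 48.5 CPM on SoftA and 41.2, 49.9 and 49.1 CPM on StiffA (0.55 ± 0.12, adjusted p = 0.00888). Bhlhe40 read 72.3 and 76.9 CPM on SoftY and 83.6, 86.7 and 84.0 CPM on StiffY, against 111, 104 and 124 CPM on SoftA and 112, 114 and 130.3 CPM on StiffA. For Bhlhe40 the 2 matrices were fully apart (0.54 ± 0.08, adjusted p = 3.74e-04). For Pdk1 1 library on StiffY lay within the range on aged ECM. Hif1a read 164 and 192 CPM on SoftY and 153, 193 and 178 CPM on StiffY, against 216, 199 and 313 CPM on SoftA and 228, 209 and 251 CPM on StiffA. All values on aged ECM were higher (0.41 ± 0.11, adjusted p = 0.0391), and the highest was that of SoftA replicate 3. Without that library the difference was 0.29 with an adjusted p of 0.115, while the other 5 genes of young cells still passed and 6 genes of the set passed in all. Over all 11 fits with 1 library left out, the calls of Pkm and Bhlhe40 held, and that of Hif1a was lost in 7, that of Aldoa in 4 and those of Slc16a3 and Pdk1 in 1 each. Without young SoftY replicate 1 or 2 the count was 3.

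The other genes that rose in aged cells on aged ECM were Ldha (0.48 ± 0.09, adjusted p = 0.00115), Pfkfb3 (0.47 ± 0.11), Pkm (0.45 ± 0.05, adjusted p = 2.98e-07), Aldoa (0.40 ± 0.05), Tpi1 (0.40 ± 0.09), Bhlhe40 (0.33 ± 0.08) and Ero1a (0.26 ± 0.07). In young cells Pkm rose by 0.32 ± 0.05 (adjusted p = 3.31e-04) and Aldoa by 0.22 ± 0.05. The rise of Aldoa there lay mostly on soft gels. Its mean was higher by 257 CPM on SoftA than on SoftY, and by 40.4 CPM on StiffA than on StiffY. For Pkm these steps were 464 and 243 CPM. Of the 11 calls in aged cells, 9 held with any aged cultured library left out, and those of Ero1a and Bhlhe40 were lost in 8 and 2 of 12 fits. Aldoa, Bhlhe40, Eno1, Ero1a, Ldha, Pgk1, Pkm and Slc16a3 were higher in fresh aged cells, fell in culture in aged cells and rose on aged ECM in aged cells. They were put together after their values were seen, and they include Ldha, Slc16a3 and Pgk1, whose promoter windows are printed above. How many of all genes share this pattern was not counted. The comparison of fresh ages and the step into culture share the fresh aged libraries. Vegfa gave -0.16 ± 0.27 in aged and 0.63 ± 0.32 in young cells, and Slc2a1 0.27 ± 0.09 (adjusted p = 0.0777) and 0.16 ± 0.10 (adjusted p = 0.544). Endothelial markers moved beside these rises in aged cells, with 4 of 6 higher on aged ECM and group sums between 80.6 and 113 CPM on young and between 123 and 168 CPM on aged ECM. Of the fibroblast markers 3 of 8 were higher and 2 lower. Their part in the result was not tested.

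**Figure D3:**
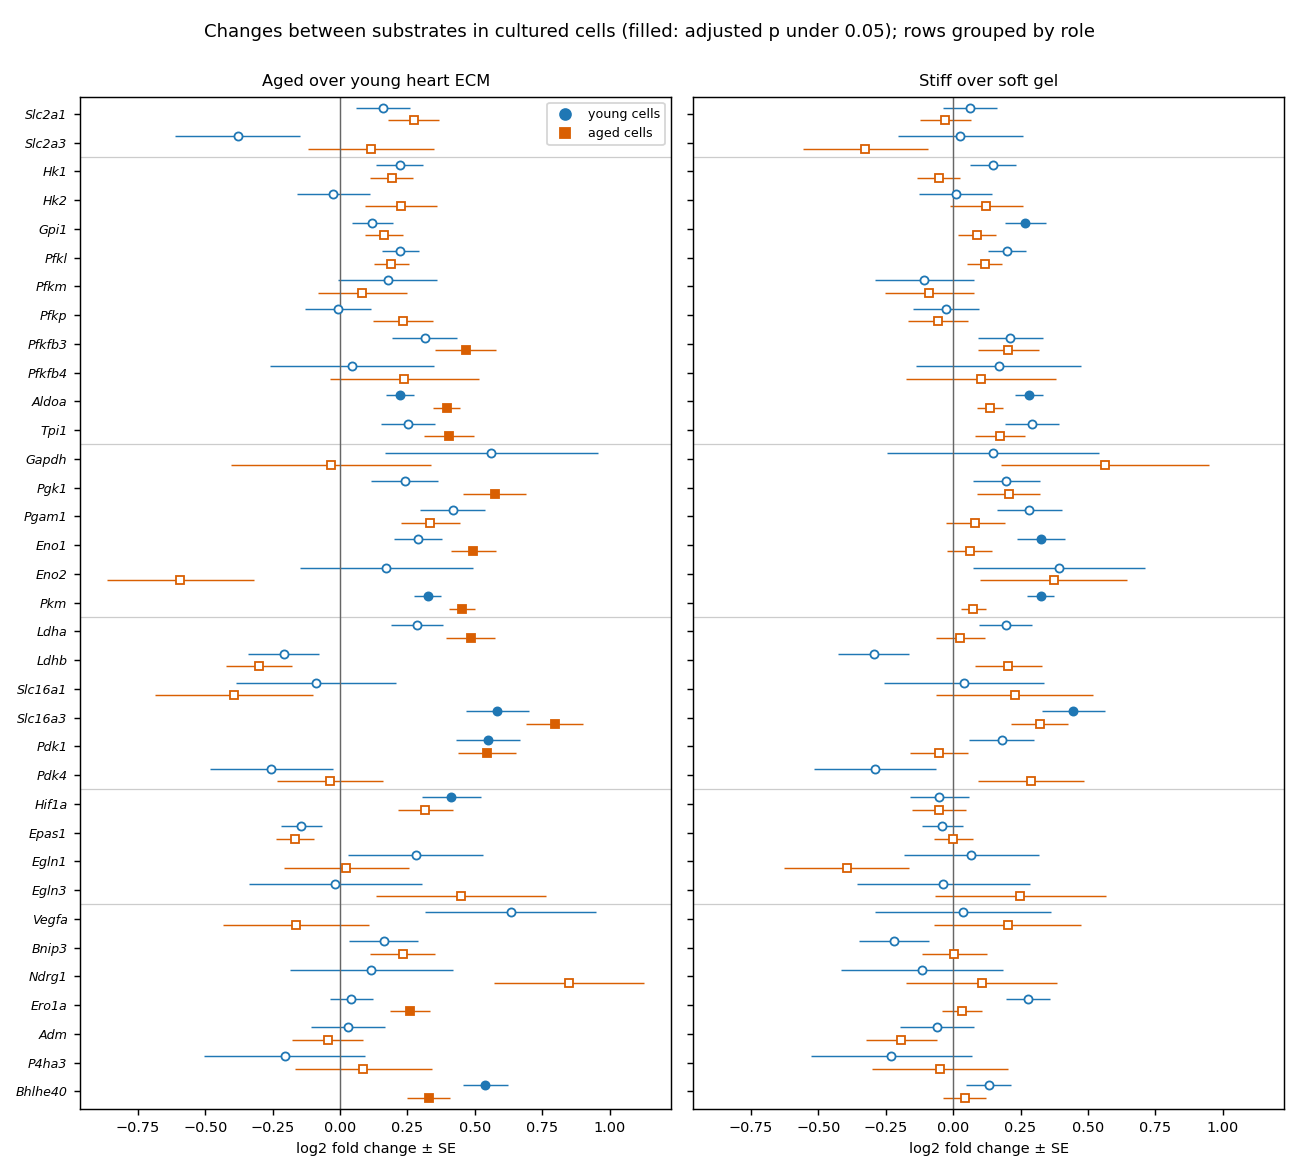
Log2 fold change ± SE of each tested gene of the set in cultured cells, for aged over young ECM (left) and stiff over soft gel (right), with young cells as blue circles and aged cells as orange squares, and filled symbols for an adjusted p under 0.05. On the left 11 aged-cell and 6 young-cell symbols are filled, all right of 0, and on the right 5 young-cell symbols and no aged-cell symbol.

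Gel stiffness was compared as stiff over soft, averaged over both matrices. In young cells 5 of 35 genes rose on stiff gels and none fell, 14.3% against 3.56% of all genes tested (1.66% higher, 1.9% lower), with a median of 0.13 against 0.0011. The 5 were Slc16a3 (0.45 ± 0.12, adjusted p = 0.0265), Pkm (0.33 ± 0.05, adjusted p = 1.40e-04), Eno1 (0.33 ± 0.09, adjusted p = 0.0371), Aldoa (0.28 ± 0.05, adjusted p = 0.00130) and Gpi1 (0.27 ± 0.08, adjusted p = 0.0445). Pkm read 1242 and 1227 CPM on SoftY, 1658, 1721 and 1712 CPM on StiffY, 1669, 1578 and 1849.8 CPM on SoftA, and 1933, 1836 and 2050.5 CPM on StiffA. SoftY stood lowest and StiffA highest but for 1 library, with StiffY and SoftA overlapping between them. Aldoa read 832 and 783 CPM on SoftY, 1119, 1139 and 1059 CPM on StiffY, 1055, 992 and 1145 CPM on SoftA, and 1110.0, 1120.0 and 1209 CPM on StiffA. Eno1 read 638 and 747 CPM on SoftY, 1049.6, 1099.9 and 991 CPM on StiffY, 936, 859 and 1269.9 CPM on SoftA, and 971, 1002 and 1211 CPM on StiffA. For both, SoftY was lowest and the other 3 substrates overlapped.

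These calls rest on few libraries. Those of Aldoa and Pkm held with any library left out, while Eno1, Gpi1 and Slc16a3 lost theirs in 9, 9 and 5 of 11 fits. The count ranged from 2 (without young SoftY replicate 1, StiffY replicate 3 or StiffA replicate 3) to 8 (without young SoftA replicate 3). It was 3 without StiffY replicate 1 or 2, SoftA replicate 1 or 2, or StiffA replicate 2. Without SoftA replicate 3, Eno1 gave 0.42 (adjusted p = 8.60e-04) and Gpi1 no longer passed (0.22, adjusted p = 0.108). Fibroblast markers moved beside these rises, with 4 of 8 lower on stiff gels and none higher, as were 1 of 6 endothelial and 1 of 4 myeloid markers. Fibroblast sums were 28616 to 30926 CPM on SoftY, 23668 to 24465 CPM on StiffY, 27579 to 31595 CPM on SoftA and 26110 to 28688 CPM on StiffA, and myeloid sums 40.1 to 67.0 CPM on soft and 26.3 to 35.5 CPM on stiff gels. Their part in the result was not tested.

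In aged cells 0 of 35 genes passed with edgeR or with DESeq2, against 0.296% of all genes with edgeR (0.00779% higher). 2 had an unadjusted p under 0.05, Slc16a3 (0.32 ± 0.11, adjusted p = 0.487) and Aldoa (0.14 ± 0.05, adjusted p = 0.569). No gene passed the test that the response to stiffness differs between ages (0.787% of all genes did). 4 had an unadjusted p under 0.05, the smallest being that of Pkm (-0.25 ± 0.07, adjusted p = 0.0996), and DESeq2 called 0. Without young SoftA replicate 3, 1 passed.

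Whether matrix and stiffness act beyond their sum was tested within each age. In young cells 0 of 35 genes passed with either tool, against 0.615% of all genes (0.498% higher), and 8 had an unadjusted p under 0.05. 7 of these 8 had a negative interaction, among them Pgk1 (-0.87 ± 0.25, adjusted p = 0.105), Aldoa (-0.36 ± 0.10, adjusted p = 0.116) and Eno1 (-0.55 ± 0.18, adjusted p = 0.176). For Aldoa and Eno1, SoftY was lowest and the other substrates overlapped, as given above. Pgk1 read 35.3 and 46.1 CPM on SoftY, below the 46.5 to 73.9 CPM of the other 3 substrates. Without young SoftA replicate 2 or StiffA replicate 3, 2 and 1 genes passed. Genes also passed with no filter, with a replicate block by library number and with copies summed, as given in the last section. In aged cells 0 of 35 passed (0.0234% of all genes) and 1 had an unadjusted p under 0.05, Slc16a3 (0.52 ± 0.21, adjusted p = 0.856). For the difference between ages in the response to matrix, 0 passed with either tool (0.0935% of all genes, 0.0701% lower) and 1 had an unadjusted p under 0.05, Aldoa (0.17 ± 0.07, adjusted p = 0.552).

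Pairs of related genes changed in make-up, compared as shares of CPM per kilobase of the longest coding transcript. Hk2 made up 38.6 ± 0.794% (SD, n = 3) of Hk1 and Hk2 together in fresh young and 24.1 ± 2.42% in fresh aged cells. In culture the share was 11.3 to 19.1% (median 15.1%) in young and 8.84 to 14.0% (median 10.8%) in aged libraries. All fresh libraries lay above all cultured ones, and all fresh young above all fresh aged. Ldhb made up 1.83 ± 0.238% and 1.87 ± 0.133% of the 2 lactate dehydrogenase genes in fresh young and aged cells, and 8.96 to 18.3% and 8.80 to 17.4% in culture. In young cells on SoftY it was 18.2% (mean of 2), above 8.96 to 11.5% on the other 3 substrates. In aged cells Ldhb took 14.4 to 17.4% on young ECM and 8.80 to 11.9% on aged ECM, with no overlap. The level of Ldhb itself did not pass between matrices (-0.30 ± 0.12 in aged cells, adjusted p = 0.144), and Ldha rose there.

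Pdk4 made up 5.15% of Pdk1 and Pdk4 in fresh young and 5.94% in fresh aged cells, and a median of 31.0% and 35.4% in culture, with wide spread between libraries. This pair leaves out 2 other PDH kinases that are not in the set. Group means of Pdk3 were 41.8 and 39.2 CPM in fresh young and aged cells and 56.1 to 92.0 CPM in culture. Those of Pdk2 were 5.04 and 5.61 CPM fresh and 22.6 to 34.3 CPM in culture. Hif1a made up 48.8 ± 2.56% of the 2 HIF alpha genes in fresh young and 59.9 ± 3.09% in fresh aged cells. In culture it was 27.0 to 29.2% on young ECM and 33.8 to 40.0% on aged ECM in young cells, without overlap. In aged cells it was 35.4 to 39.1% on young ECM and 42.0 to 47.6% on aged ECM, again without overlap. In both ages the share was thus lower in culture than fresh, and lower on young than on aged ECM. Egln3 made up 81.5 ± 7.10% of Egln1 and Egln3 in fresh young and 88.1 ± 3.96% in fresh aged cells, and a median of 38.4% and 39.4% in culture. Egln2, not in the set, is left out of this pair, though its level was higher than that of either. Its group means were 164 and 140 CPM in fresh young and aged cells and 94.9 to 129 CPM in culture. No test was run on these shares.

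**Figure D4:**
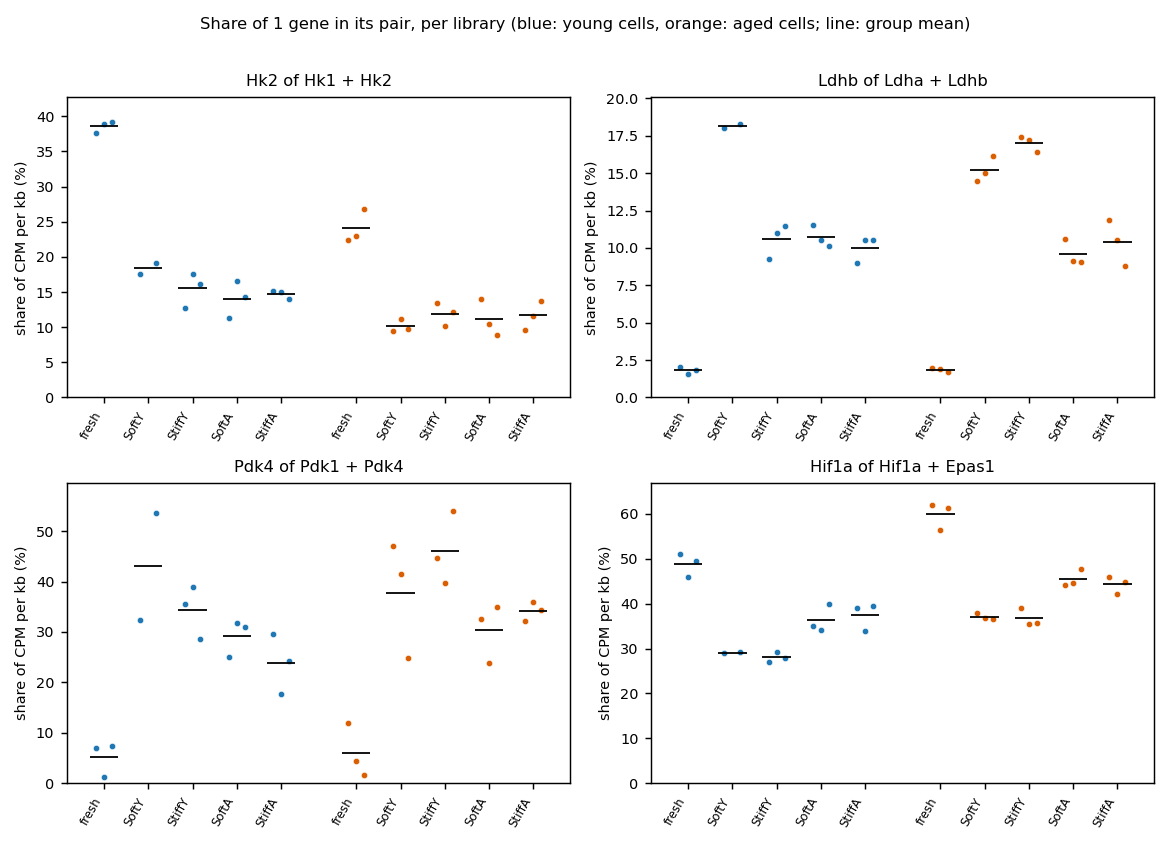
Share of 1 gene in the CPM per kilobase of its pair, in percent on an axis from 0, in every library by group (blue for young cells, orange for aged cells, black line for the group mean). Within each age fresh libraries have the highest shares of Hk2 and Hif1a and the lowest of Ldhb and Pdk4, and shares of Hif1a are higher on SoftA and StiffA than on SoftY and StiffY.

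9 genes passed in no comparison: Aldoc, Ankrd37, Car9, Egln1, Eno2, Ndrg1, Pfkfb4, Pfkp and Vegfa. Apart from Pfkp, at 42.3 to 86.4 CPM, none exceeded 15.8 CPM in any library. Car9, the carbonic anhydrase that is one of the most sensitive HIF targets, lay at or under 1.72 CPM in every library and was at 0 in several. Ankrd37, another HIF target, was at 0 in all 3 libraries of aged cells on SoftY and at or under 2.31 CPM elsewhere.

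Other genes of these pathways were counted from lists chosen for the purpose. These lists, like the set itself, were chosen with earlier results of these data known. Their shares, here and in culture, are therefore no independent support beside those of all genes. In fresh aged cells 5 of 15 other glycolysis and carbon branch genes rose and 1 fell, with the glycogen branching enzyme Gbe1 at 1.35 ± 0.11 and the phosphoglucomutase Pgm1 at 0.46 ± 0.09. Of 6 pentose phosphate genes 3 rose and 0 fell: Taldo1 (1.43 ± 0.06), Pgd (0.82 ± 0.08) and G6pdx (0.38 ± 0.08). Of 29 other hypoxia targets 8 rose and 5 fell, among them Ier3 (1.96 ± 0.09) and Bhlhe41 (1.23 ± 0.10), with a median of 0.01 against 0.18 in the set. Of the 10 oxygen sensing genes 1 rose, the HIF antagonist Cited2 (1.52 ± 0.19), and 2 fell, Egln2 (-0.27 ± 0.08) and the HIF partner Arnt (-0.30 ± 0.11). Of 12 fatty acid oxidation genes 1 rose, the lipid droplet coat gene Plin2 (1.14 ± 0.08). The shares called in these lists were 40.0%, 50%, 44.8%, 30.0% and 8.33% in the order given, beside 31.8% of all genes.

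In culture the fatty acid oxidation genes, whose enzymes supply mitochondria with another fuel than glucose, were mostly higher. In young cells 11 of 14 rose and 0 fell, against 10 higher and 1 lower in aged cells (78.6% called at each age, beside 56.9% and 62.4% of all genes), with Acadvl at 1.08 ± 0.08 and 0.99 ± 0.08 and Cpt1c at 1.37 ± 0.12 and 1.30 ± 0.12. Plin2 fell in aged cells (-0.96 ± 0.07). Among fresh cells 12 of these 14 genes passed the filter on low counts. Among 19 other glycolysis and carbon branch genes, young cells had 6 higher and 6 lower, and aged cells 5 higher and 6 lower (63.2% and 57.9% called). The PDH kinases Pdk2 (2.39 ± 0.25 and 2.24 ± 0.25) and Pdk3 (0.70 ± 0.11 and 1.00 ± 0.11) rose at both ages, and Gbe1 fell at both (-0.64 ± 0.15 and -1.91 ± 0.13). Of 7 pentose phosphate genes, young cells had 1 higher and 1 lower and aged cells 1 higher and 4 lower (28.6% and 71.4% called), with Taldo1 at -0.55 ± 0.07 and -2.19 ± 0.06. Of 29 other hypoxia targets, young cells had 11 higher and 9 lower and aged cells 10 higher and 14 lower (69.0% and 82.8% called), with the collagen crosslinker Lox at 4.49 ± 0.14 and 4.87 ± 0.14 and the transferrin receptor Tfrc at -1.97 ± 0.11 and -2.93 ± 0.11. Of 10 oxygen sensing genes, 3 rose and 1 fell in the young and 2 rose and 5 fell in the aged comparison (40.0% and 70.0% called). Arnt (0.43 ± 0.08 and 0.59 ± 0.08) and Vhl (0.79 ± 0.16 and 0.96 ± 0.17) rose at both ages, Egln2 fell at both (-0.44 ± 0.11 and -0.46 ± 0.11), and Cited2 fell in aged cells (-2.06 ± 0.20). On aged ECM 8 of 28 other hypoxia targets rose in aged cells and 5 in young cells, with 0 lower at either age (28.6% and 17.9% called, beside 7.44% and 2.49% of all genes).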

How the data were processed

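Libraries were made from low-input RNA with a NEBNext kit, per the labels' protocols. The submitters' processing notes name STAR 2.7.8a and mm39. The sources used here do not give the counting tool, its strand setting or the annotation release. The authors deposited 1 table of raw counts, by gene, with all 29 libraries. Its coordinates are mm39, while copies and promoters were read from GENCODE M21 and RefSeq tables of GRCm38.

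The members and lists were chosen with earlier results of these data known. Counts were tested with edgeR 4.0.16 (R 4.3.3) by glmQLFit and glmQLFTest after filterByExpr and TMM scaling, with Benjamini-Hochberg adjustment, in 3 fits of 6 fresh, 23 cultured and all 29 libraries. A total of 13 comparisons were made. DESeq2 1.42.0, RLE scaling, no filter, a replicate block, leaving out each library and summing copies were alternatives, the last chosen after seeing the data. The scripts were tested on simulated data.

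Every library's value is given for members that passed with the largest fold changes, up to 8 per direction (4 for substrates), and for Slc2a1, Hk2, Ldha, Pdk4, Hif1a and Vegfa. No 2 libraries held identical values.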

Additional observations from a re-analysis of the deposited data

Results flagged for a closer look

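For 9 genes the change from fresh to cultured cells differed between aged and young cells by the interaction term of edgeR's quasi-likelihood test with Benjamini-Hochberg adjustment over all genes. These 9 are 25.7% of the 35 tested, near the 20.6% of all genes. Values are aged minus young in log2. Slc2a1 gave -0.78 in young and -1.80 in aged cells, a difference of -1.02 (adjusted p = 2.32e-07). For Pkm the changes were -0.87 and -1.27, a difference of -0.39 (adjusted p = 4.14e-05), and for Pgk1 -0.73 and -1.27, a difference of -0.53 (adjusted p = 0.0268). Ldha gave -0.78 and -1.14, a difference of -0.36 (adjusted p = 0.0494). These 4 genes fell at both ages.

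Bhlhe40 gave 0.03 in young and -0.54 in aged cells, a difference of -0.57 (adjusted p = 9.36e-04), and Hk1 gave 0.09 and -0.42, a difference of -0.51 (adjusted p = 0.00179). Adm rose by 1.2 and 0.57, a difference of -0.63 (adjusted p = 0.0186). Epas1 gave -0.06 and 0.32, a difference of 0.38 (adjusted p = 0.0145), and Pfkl -0.16 and 0.11, a difference of 0.27 (adjusted p = 0.0399). All 9 genes also differed with age in the fresh libraries, which enter this interaction. No group had more than 3 libraries, so that no library was tested as an outlier.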

How the results depend on the processing

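No gene of the set that was called in a comparison changed direction there under any alternative run. For genes not called, direction was checked only for Slc2a1, Hk2, Ldha, Pdk4, Hif1a and Vegfa. That check covered age in fresh cells, culture at each age and age in culture. The counts of genes called with RLE size factors, DESeq2, no filter, the replicate block and copies summed were 15, 13, 15, 14 and 16 in fresh cells, 21, 21, 21, 22 and 22 for culture in young cells and 28 in each case in aged cells. In the same order they were 8, 8, 8, 9 and 9 for culture by age, 6, 6, 7, 6 and 6 for age in culture, and 11, 11, 11, 14 and 12 for ECM in aged cells. For ECM in young cells they were 6, 6, 7, 7 and 7, and for stiffness in young cells 4, 5, 4, 6 and 4. For the interaction of stiffness and ECM in young cells the count of 0 became 2 with no filter, 3 with the replicate block by library number and 1 with copies summed. The cause was not tested. Bhlhe40 and Egln3 missed the threshold in fresh cells with DESeq2 (adjusted p = 0.0812 and 0.0532), and Eno1 did so for stiffness in young cells with copies summed (adjusted p = 0.0645).

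With each library left out in turn the counts were 11 to 15 in fresh cells, 21 to 22 and 27 to 30 for culture in young and aged cells, 5 to 11 for culture by age, and 4 to 9 for age in culture. They were 2 to 8 for stiffness and 3 to 9 for ECM in young cells, 0 and 9 to 12 in aged cells, 0 to 2 and 0 for stiffness by ECM in young and aged cells, 0 to 1 for age by stiffness, and 0 for age by ECM. A group left with 1 library is assumed to vary like the others.

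Whether replicate numbers pair libraries was checked within each age. Of 56 same-numbered pairs 36 correlated over 0.1 by title number (median 0.138, against -0.103 for other pairs) and 39 by library number (median 0.159, against -0.106). Of 29 libraries 22 and 23 correlated best with their own number, a hint from the data and not the design. Genes under about 10 CPM rest on few counts in a library.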
